A study of Rattus norvegicus with 6 samples.

Results

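The YAP and TAZ set consisted of 10 genes chosen by symbol: the coactivators Yap1 and Wwtr1, which encodes TAZ, their DNA-binding partner Tead1, the target genes Ctgf, Cyr61 and Ankrd1, and the regulators Amotl1, Amotl2, Lats2 and Ajuba. Of these, 9 were matched by symbol among the 17327 genes counted, and all 9 were among the 9740 genes with enough reads to be tested. Amotl1 was not analysed here.

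YAP and TAZ are transcriptional coactivators that carry mechanical and Hippo signals to the nucleus, where they bind TEAD factors at promoters and enhancers. The Hippo kinases MST and LATS phosphorylate YAP and TAZ and thereby keep them in the cytoplasm or mark them for degradation, so much of their regulation takes place in the protein and is not read by RNA counts. In Schwann cells, the glia that wrap peripheral axons, YAP and TAZ are known for their part in the sorting of axons and in myelination.

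RNA sequencing was performed on primary Schwann cells grown from the sciatic nerves of adult Wistar rats, after 6 h with 10 nM soluble NRG1β1, a growth factor that binds ErbB3 on these cells (the NRG1 group), or after 6 h with the vehicle, PBS with 1% BSA (the mock group). Each group held 3 libraries numbered 1 to 3, from independent experiments, and libraries with the same number are called here a culture. In both groups the cells had been purified and expanded in medium with 10% FBS, forskolin and, by the sample labels, glial growth factor, itself an NRG1 protein, at 63 ng/mL. For this medium the study's methods name recombinant soluble NRG1β1 instead. Both groups had then been starved for 18 h in medium with 2% FBS and 10 μM forskolin, so that mock cells had received a ligand of the same receptor before the starvation and were exposed to a drug that raises cAMP.

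The 6 libraries held 6821590 to 15475018 reads in genes, so that 3 counts, the limit that a count of 0 allows, corresponded to 0.194 to 0.44 CPM, the field's usual scaling of counts to library size. Levels are given as CPM scaled by TMM (trimmed mean of M-values) factors. They were not divided by gene length, and levels of different genes were therefore not compared. The Schwann cell markers Sox10, S100b, Erbb3 and Ngfr were counted in every library, whereas Gap43 had at most 5 counts. The endothelial markers Pecam1 and Cdh5 and the macrophage markers Ptprc and Cd163 were at 0 counts in all 6 libraries.

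Culture 1 stood apart from the other two. The summed level of 6 Schwann cell markers was 3055 CPM in its mock and 2796 CPM in its NRG1 library, and between 5250.5 and 6814 CPM in the libraries of cultures 2 and 3. The summed level of 8 fibroblast markers was 53432 and 57725 CPM in culture 1, against 13696 to 22338 CPM in cultures 2 and 3. The defining fibroblast markers Dcn and Thy1 had 4574 and 9493 counts in mock 1 and 3203 and 8576 counts in NRG1 1, and 0 counts in the 4 libraries of cultures 2 and 3. Of the other fibroblast markers, Col1a2 had at most 2 counts in any library, and Col1a1 and Col3a1 made up most of the sum in culture 1. In cultures 2 and 3 nearly all of the sum was Col1a1, with 21494 of 22338 CPM in mock 2. Values without culture 1 are therefore given beside some of the results, though not beside every one that moved with it.

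A single gene of the set was called changed with NRG1 in the main test. Ankrd1 fell in all 3 cultures, to 0.410 of its mock level, whereas the mRNAs of Yap1, Wwtr1, Tead1, Ctgf, Cyr61, Amotl2, Lats2 and Ajuba did not pass the test. The test was a paired edgeR quasi-likelihood fit over all genes, in which a gene was called changed at a Benjamini-Hochberg adjusted p of at most 0.01. Thus 1 of 9 genes was called, beside 11.8% of all genes tested: 6.31% rose and 5.51% fell. The call of Ankrd1 was lost without culture 2 or without culture 3, and the paired DESeq2 test called Wwtr1 as well. Ankrd1 also passed the additional limit of an absolute log2 fold change over 1, as did 3.47% of all genes. The median log2 fold change of the 9 genes was 0.03, and that of all genes was -0.03. The levels of the NRG1 and mock libraries did not overlap for 2 of the 9 genes, Ankrd1 and Ajuba, which compares with 20.1% of all genes tested. The direction was the same in all 3 cultures for 6 of the 9 genes, beside 56% of all genes tested.

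**Figure D1:**
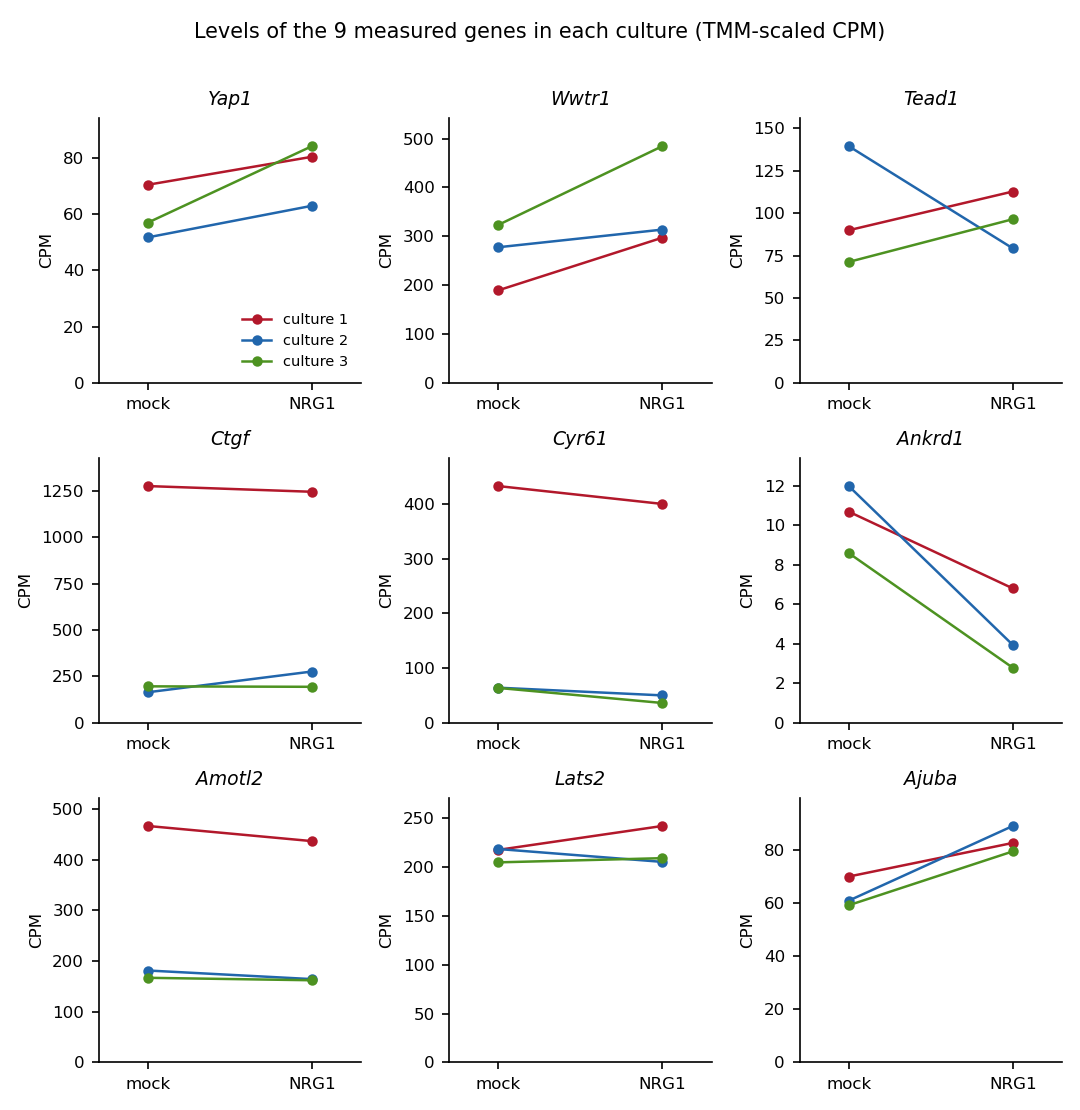
Level of each of the 9 genes in every library, in TMM-scaled CPM on linear axes that start at 0, with each line joining the mock and the NRG1 library of 1 culture. Ankrd1 falls in all 3 cultures, from 8.59 to 12.0 CPM down to 2.78 to 6.80 CPM, while Ctgf, Cyr61 and Amotl2 are highest in culture 1 in both groups.

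Yap1 encodes the coactivator YAP. Its level was 70.6, 51.8 and 57.0 CPM in mock libraries 1, 2 and 3, and 80.5, 63.0 and 84.3 CPM in the NRG1 libraries in the same order. It was higher with NRG1 within each culture, although the groups overlapped, with means of 59.8 ± 9.68 and 76.0 ± 11.3 CPM (SD, n = 3). The fitted log2 fold change was 0.35 (SE 0.12, 95% confidence interval 0.08 to 0.62), with an edgeR adjusted p of 0.0549.

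Wwtr1 encodes TAZ, the paralogue of YAP. Mock libraries 1 to 3 held 189, 277 and 323 CPM, and the NRG1 libraries 297, 313 and 484 CPM. Again every culture was higher with NRG1 and the groups overlapped, since the NRG1 library of culture 1 lay below the mock library of culture 3. The log2 ratios of the 3 cultures were 0.65, 0.18 and 0.58, and the fitted log2 fold change was 0.47 (SE 0.13), with an adjusted p of 0.0179. Leaving out a culture moved Wwtr1 to either side: without culture 2 the log2 fold change was 0.62 with an adjusted p of 0.00306, but without culture 1 it was 0.38 (adjusted p = 0.124) and without culture 3 it was 0.44 (adjusted p = 0.125). The paired DESeq2 test gave 0.49 with an adjusted p of 0.0059, and edgeR without pairing gave an adjusted p of 0.531.

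Tead1 encodes a TEAD factor, the family through which YAP and TAZ reach DNA. Its mock levels were 89.9, 139.5 and 71.2 CPM, and its NRG1 levels 112.8, 79.2 and 96.4 CPM. Cultures 1 and 3 were higher with NRG1 while culture 2 was lower, with log2 ratios of 0.33, 0.44 and -0.81. The range of these 3 ratios, 1.25, was exceeded by 4.87% of all genes tested, and the median range of all genes was 0.424. The fitted log2 fold change of -0.01 (95% confidence interval -0.42 to 0.40, adjusted p = 0.973) thus combined opposite differences, and without culture 2 it was 0.39 with an adjusted p of 0.0307.

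Lats2 encodes one of the kinases that phosphorylate YAP and TAZ, and is itself a known YAP and TAZ target. Its levels were 217, 218 and 205 CPM in the mock and 242, 205 and 209 CPM in the NRG1 libraries. The groups overlapped and the cultures resembled each other, with a highest mock level 1.07 times the lowest, a ratio that 96.6% of all genes exceeded. The log2 fold change was 0.03, with a 95% confidence interval of -0.22 to 0.28 (adjusted p = 0.875).

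Ajuba encodes a LIM domain protein that binds LATS kinases and limits their action on YAP. Mock levels of 69.9, 60.8 and 59.1 CPM stood against NRG1 levels of 82.5, 88.9 and 79.3 CPM. All NRG1 libraries were above all mock libraries, with means of 83.6 ± 4.87 and 63.3 ± 5.80 CPM (SD, n = 3). The log2 fold change of 0.40 (SE 0.12, 95% confidence interval 0.15 to 0.66) nevertheless had an adjusted p of 0.0257, which did not meet the threshold.

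Amotl2 encodes an angiomotin-like scaffold of cell junctions that binds YAP, and its transcription is in turn driven by YAP and TAZ in many cells. Its levels were 466, 181 and 167 CPM in the mock and 436 (culture 1), 164 and 162 CPM in the NRG1 libraries. The groups overlapped, and the difference between cultures exceeded that between treatments. The log2 ratios of the 3 cultures, -0.10, -0.14 and -0.04, spanned a narrower range than those of 95.8% of all genes. The fitted log2 fold change was -0.09, with a 95% confidence interval of -0.34 to 0.16 (adjusted p = 0.606).

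Ankrd1 encodes an ankyrin repeat protein of nucleus and sarcomere and is one of the transcripts most used as a readout of YAP and TAZ. It was the least counted gene of the set, with 80, 81 and 109 reads in the mock and 51, 35 and 43 reads in the NRG1 libraries. Scaled, these were 10.7, 12.0 and 8.59 CPM in the mock and 6.80, 3.93 and 2.78 CPM in the NRG1 libraries. Every NRG1 library lay below every mock library, with means of 4.50 ± 2.07 and 10.4 ± 1.71 CPM (SD, n = 3). The log2 fold change was -1.29 (SE 0.24, 95% confidence interval -1.80 to -0.77), with an adjusted p of 0.00176. Culture 1 differed least, with a log2 ratio of -0.64, against -1.56 in both cultures 2 and 3. Without culture 1 the log2 fold change was -1.61 (adjusted p = 1.84e-06). The call was lost without culture 2 (-1.14, adjusted p = 0.0102) or without culture 3 (-1.09, adjusted p = 0.0192), and also when libraries were not paired by culture (-1.22, adjusted p = 0.252).

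Cyr61 encodes a secreted matricellular protein, also named CCN1, that is induced by YAP and TAZ. Its mock levels were 433, 63.8 and 63.3 CPM, and its NRG1 levels 400.2, 49.7 and 35.8 CPM. Within each culture the NRG1 library was lower, with log2 ratios of -0.11, -0.36 and -0.82, but the groups overlapped because of the distance of culture 1 from the others. The log2 fold change of -0.42 (SE 0.14, 95% confidence interval -0.73 to -0.12) had an adjusted p of 0.0437. Without culture 1 it was -0.60 (adjusted p = 0.0123), without culture 2 it was -0.44 (adjusted p = 0.0592), and without culture 3 it was -0.21 (adjusted p = 0.53).

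Ctgf encodes connective tissue growth factor, also named CCN2, a matricellular protein of the same family and likewise a common YAP and TAZ readout. Mock libraries 1 to 3 held 1277, 163 and 195 CPM, and the NRG1 libraries 1246, 275 and 193 CPM. Cultures 1 and 3 differed little between treatments, at 0.976 and 0.987 of mock, whereas in culture 2 the NRG1 level was 1.68 times the mock level. The fitted log2 fold change was 0.23 (SE 0.16, 95% confidence interval -0.11 to 0.56, adjusted p = 0.319), and it was 0.37 (adjusted p = 0.145) without culture 1 and -0.02 (adjusted p = 0.915) without culture 2.

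**Figure D2:**
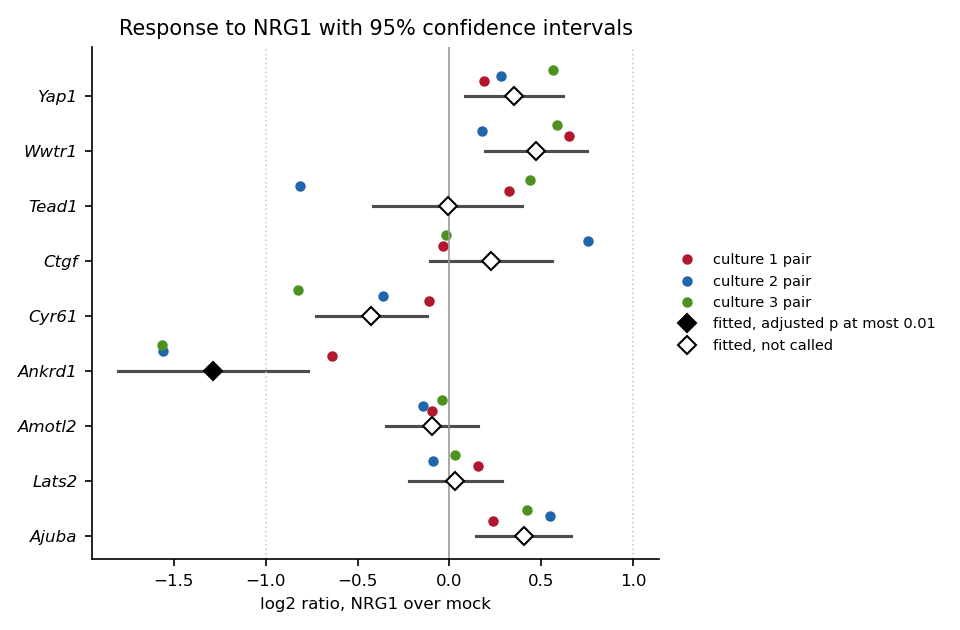
Response of each gene as the log2 ratio of the NRG1 to the mock library of the same culture (points, 1 for each of the 3 cultures, set apart vertically for legibility) and as the fitted log2 fold change with its 95% confidence interval (diamond, filled for the gene called changed, and bar). Ankrd1 lies furthest from 0 with a fitted value of -1.29 and an interval up to -0.77, the points of Tead1 fall on both sides of 0, and those of Amotl2 and Lats2 lie between -0.14 and 0.15.

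The responses of genes with a shared role were compared culture by culture. Values were at hand for 4 pairs of genes, and with 3 cultures the smallest p that a two-sided exact sign-flip permutation test allows is 0.25, so no difference could pass. The log2 ratio of Ctgf exceeded that of Ankrd1 by 1.49 ± 0.86 (SD, n = 3, exact p = 0.25) and that of Cyr61 by 0.66 ± 0.53 (SD, n = 3, exact p = 0.25). Cyr61 in turn exceeded Ankrd1 by 0.82 ± 0.35 (SD, n = 3, exact p = 0.25). Each of these differences had the same sign in all 3 cultures. Between Yap1 and Wwtr1 the difference was -0.13 ± 0.30 (SD, n = 3, exact p = 0.75), with signs that varied. Adjusted over the 4 comparisons, the exact p-values were 0.333 for the 3 pairs of target genes and 0.75 for Yap1 and Wwtr1.

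The same fit was used to ask which genes of the set differed among the 3 cultures, whatever the treatment, a question raised after the levels had been seen. Ctgf, Cyr61, Amotl2 and Wwtr1 did so, which is 4 of 9 genes beside 23.4% of all genes tested. Each culture was a single experiment with 1 mock and 1 NRG1 library. The p-values between cultures were thus set against the spread within cultures and do not measure how repeated cultures would vary. Ctgf was lower in cultures 2 and 3 than in culture 1 by log2 differences of -2.55 and -2.70 (edgeR adjusted p = 2.31e-08). For Cyr61 these were -2.89 and -3.12 (adjusted p = 1.75e-09), and for Amotl2 -1.39 and -1.46 (adjusted p = 1.03e-06). Wwtr1 went the other way, with culture 1 lowest: cultures 2 and 3 were higher by 0.32 and 0.74 (adjusted p = 0.006). The call of Wwtr1 was lost without culture 3 (adjusted p = 0.219), while those of Ctgf, Cyr61 and Amotl2 held without culture 2 or 3. Yap1, Tead1, Ankrd1, Lats2 and Ajuba did not pass, with adjusted p-values of 0.118 to 0.687.

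In mock cells, Ctgf stood at 7.12, Cyr61 at 6.81 and Amotl2 at 2.68 times the mean of cultures 2 and 3 in culture 1. With NRG1 the same ratios were 5.32, 9.37 and 2.67. Without culture 1 none of the 9 genes differed between cultures 2 and 3 by the edgeR test, with 1 gene, Wwtr1, at an unadjusted p under 0.05, where 2.47% of 9926 genes differed. Ctgf, Cyr61 and Amotl2 were highest in the culture with the highest fibroblast and pericyte marker sums, a likeness that rested on culture 1 alone. The pericyte sum was mostly Pdgfrb, with 1212 of 1307 CPM in mock 1, and the pericyte marker Des had at most 4 counts in any library. All 3 tested pericyte markers and 3 of the 4 tested fibroblast markers differed between cultures and were highest in culture 1. Among these fibroblast markers, Pdgfra had enough reads to be tested only because of culture 1, so its direction is a description only. Of the 5 tested Schwann cell markers, 4 differed and were lowest there. The part of other cell types in the levels of Ctgf, Cyr61 and Amotl2 was not tested, and in such bulk RNA fewer cells of a type and less RNA per cell cannot be told apart.

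**Figure D3:**
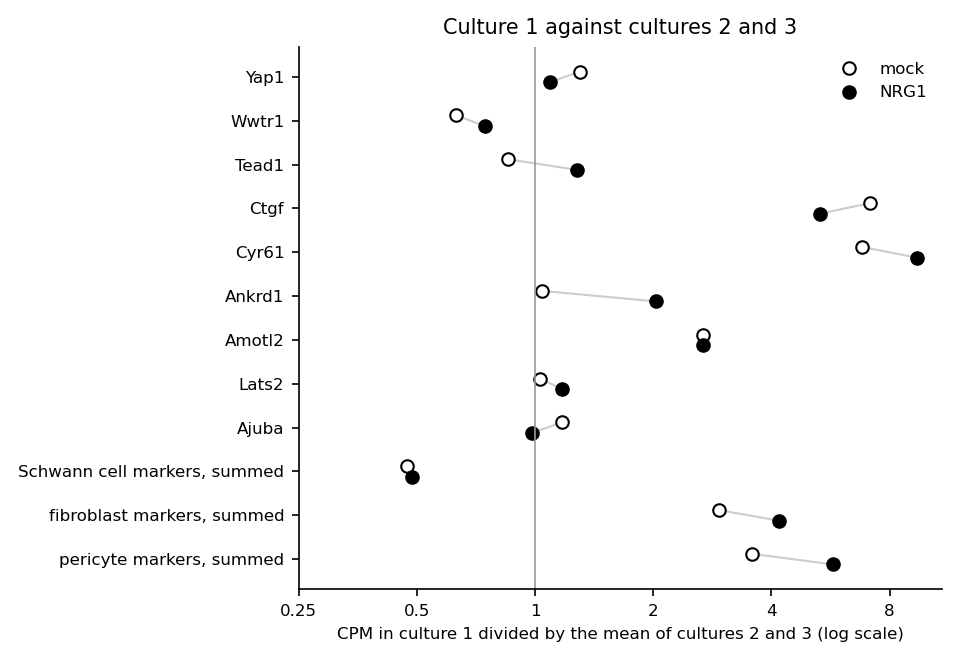
Level in culture 1 divided by the mean of cultures 2 and 3 on a log axis, in the mock (open) and NRG1 (filled) libraries, for the 9 genes and for the summed CPM of 3 marker lists. Ctgf, Cyr61 and Amotl2 lie to the right with the fibroblast and pericyte markers at ratios of 2.67 to 9.37, while Wwtr1 lies to the left, on the side of the Schwann cell markers.

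The promoters of the 3 genes that were higher in culture 1 are shown. Each holds the core TEAD motif, but so do those of Yap1 and Ajuba, which did not pass the test between cultures. RefSeq promoters of the rat assembly GRCr8 were matched for 6 of the 9 genes (Yap1, Wwtr1, Ctgf, Cyr61, Amotl2 and Ajuba), and the 250 bases before the start given with each promoter were searched on both strands. That start was the outer end of the annotated gene for Wwtr1, Ctgf, Cyr61 and Ajuba, but lay 566 bases inside it for Amotl2 and 203 bases inside it for Yap1. Those of Tead1, Ankrd1 and Lats2 were not analysed here. The reads had been aligned to an earlier assembly, rn5, and the positions given are those of GRCr8 alone. Each sequence is written 5′ to 3′ on the strand of the gene, and capitals mark CATTCC or its reverse complement GGAATG. The Ctgf promoter (chr1:22624615-22624864, minus strand), the Cyr61 promoter (chr2:237225690-237225939, minus strand) and the Amotl2 promoter (chr8:112182376-112182625, plus strand) read as follows.
Ctgf: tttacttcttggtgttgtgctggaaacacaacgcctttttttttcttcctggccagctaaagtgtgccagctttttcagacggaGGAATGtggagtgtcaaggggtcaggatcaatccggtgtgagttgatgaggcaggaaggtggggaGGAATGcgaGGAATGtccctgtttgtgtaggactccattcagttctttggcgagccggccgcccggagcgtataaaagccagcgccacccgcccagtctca
Cyr61: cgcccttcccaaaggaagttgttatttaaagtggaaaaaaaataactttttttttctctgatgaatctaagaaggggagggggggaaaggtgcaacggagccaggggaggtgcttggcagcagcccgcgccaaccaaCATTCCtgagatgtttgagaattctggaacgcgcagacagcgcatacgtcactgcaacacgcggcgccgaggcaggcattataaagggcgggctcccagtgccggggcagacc
Amotl2: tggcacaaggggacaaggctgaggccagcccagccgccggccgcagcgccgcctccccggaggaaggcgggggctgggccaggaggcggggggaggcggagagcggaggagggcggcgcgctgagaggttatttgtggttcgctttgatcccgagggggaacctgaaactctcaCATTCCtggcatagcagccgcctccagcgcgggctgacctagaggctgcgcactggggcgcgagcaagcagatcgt

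Ctgf held 3 copies of the motif, which began 166, 101 and 92 bases before the start and were all written as GGAATG. Cyr61 and Amotl2 held 1 copy each, 113 and 76 bases before the start. Among the promoters not printed, those of Yap1 and Ajuba held 1 copy, 116 and 236 bases before the start, and that of Wwtr1 held none. Of 27457 RefSeq promoters of this length, the first listed for each gene, 11.8% held at least 1 copy and 0.0911% at least 3. The AP-1 motif TGANTCA, the CRE motif TGACGTCA and the CArG box of serum response factor (SRF) were found in none of the 6 promoters, and in 6.36%, 1.7% and 1.5% of the 27457 promoters. These matches describe the letters in the window and are not evidence of binding.

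Of 32 further Hippo, YAP and TAZ pathway genes, 26 were matched and 25 tested, and 1 of the 25 changed, beside 11.8% of all genes. This was Wwc2, of the KIBRA family of LATS activators, which fell. Its levels were 193, 281 and 179.6 CPM in the mock and 142, 132 and 116 CPM in the NRG1 libraries. All NRG1 libraries lay below all mock libraries, with a log2 fold change of -0.72 (SE 0.14, adjusted p = 0.00185). The median log2 fold change of the 25 genes was 0.02.

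The core kinases upstream of YAP and TAZ did not pass the test. The MST kinase genes Stk3 and Stk4 had log2 fold changes of -0.38 (adjusted p = 0.0444) and -0.03 (adjusted p = 0.877), and their scaffold Sav1 had -0.19 (adjusted p = 0.295). Lats1, the paralogue of Lats2, had 0.02 (adjusted p = 0.915), and Nf2, the tumour suppressor merlin that acts upstream of LATS, had 0.22 (adjusted p = 0.187). Among nuclear partners, the TEAD factor genes Tead2 and Tead3 had 0.38 (adjusted p = 0.0391) and -0.41 (adjusted p = 0.0704). Vgll4, whose product competes with YAP for TEAD, had -0.47 (adjusted p = 0.0173). Tead4 was not analysed here.

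Of 17 further genes in wide use as YAP and TAZ targets, 13 were matched and tested, and 2 fell, Gadd45a and Ccdc80, beside 5.51% of all genes that fell and 11.8% that changed. Gadd45a, a stress gene that restrains the cell cycle, had 294, 354 and 265 CPM in the mock and 164, 112 and 85.5 CPM in the NRG1 libraries. These groups did not overlap, and the log2 fold change was -1.38 (SE 0.16, adjusted p = 3.87e-05). The study had already reported the fall of Gadd45a in these libraries. Ccdc80, a secreted matrix protein gene, had 688, 317 and 229.8 CPM in the mock and 600.3, 169 and 110.3 CPM in the NRG1 libraries. It was lower with NRG1 in every culture while the groups overlapped (log2 fold change -0.72, SE 0.16, adjusted p = 0.00458), and its call was lost without culture 2 (adjusted p = 0.022) or culture 3 (adjusted p = 0.0857), while without culture 1 its log2 fold change was -0.98 (adjusted p = 1.93e-06). The median of the 13 genes was 0.05. Without culture 1, 4 targets were called, of which 1 rose and 3 fell, beside 1191 of 9926 genes (590 rose and 601 fell). Those that fell were Gadd45a, Ccdc80 and Myof. Myof, singled out after its values were seen, had -0.62 (adjusted p = 0.0048), or -0.47 (adjusted p = 0.026) with all cultures. Myof was not called without culture 2 (-0.28, adjusted p = 0.132) or without culture 3 (-0.47, adjusted p = 0.107). The one that rose without culture 1, singled out after its values were seen, was Igfbp3, which encodes an IGF binding protein. It had 9.35, 5.62 and 5.04 CPM in the mock and 10.1, 16.4 and 9.68 CPM in the NRG1 libraries. Its groups did not overlap, and its log2 fold change was 0.86 (adjusted p = 0.0202), or 1.22 (adjusted p = 0.000123) without culture 1. Igfbp3 was not called without culture 2 (0.55, adjusted p = 0.127) or without culture 3 (0.83, adjusted p = 0.0735). In each of those 2 fits 1 target was called, which fell, beside 916 genes in all without culture 2 and 661 without culture 3. Axl, a receptor tyrosine kinase gene, had a log2 fold change of 0.20 (adjusted p = 0.293), the kinase gene Nuak2 had -0.25 (adjusted p = 0.395), and the phosphatase gene Ptpn14, whose product binds YAP, had 0.31 (adjusted p = 0.22).

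Ctgf, Cyr61 and Ankrd1 are also known as targets of SRF and its actin-regulated cofactors, the MRTFs, so 14 genes of that pathway were examined. Of these, 13 were matched and 11 tested, and Tpm1, which encodes a tropomyosin of actin filaments, alone fell, which is 9.09% of the list beside 11.8% of all genes changed and 5.51% that fell. Its levels were 1412, 565 and 465 CPM in the mock and 1104, 351 and 309 CPM in the NRG1 libraries. The groups overlapped, with culture 1 again highest, and the log2 fold change was -0.54 (SE 0.13, adjusted p = 0.00736), a call lost without culture 2 (adjusted p = 0.0253) or culture 3 (adjusted p = 0.121) and kept without culture 1 (-0.64, adjusted p = 0.00478). Without culture 1, 2 genes of the list fell, Tpm1 and Tagln, beside 601 of 9926 genes. Tagln, singled out after its values were seen, had -0.69 (adjusted p = 0.0014), or -0.465 (adjusted p = 0.0396) with all cultures. Tagln was not called without culture 2 (-0.29, adjusted p = 0.207) or without culture 3 (-0.39, adjusted p = 0.294), and in those fits 0 genes of the list were called. The median of the 11 genes was 0.17.

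Of 4 Schwann cell genes that have been tied to YAP, TAZ or Tead1, the myelin regulator Egr2 and the myelin protein gene Pmp22 fell. Their log2 fold changes were -1.71 (adjusted p = 8.52e-05) and -1.57 (adjusted p = 3.93e-06). Of all genes tested, 5.51% fell and 11.8% changed. The study had reported both genes as down-regulated in these libraries, so their fall was known beforehand and is a description only. The laminin receptor genes Itga6 and Dag1 had -0.27 (adjusted p = 0.145) and 0.05 (adjusted p = 0.83).

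**Figure D4:**
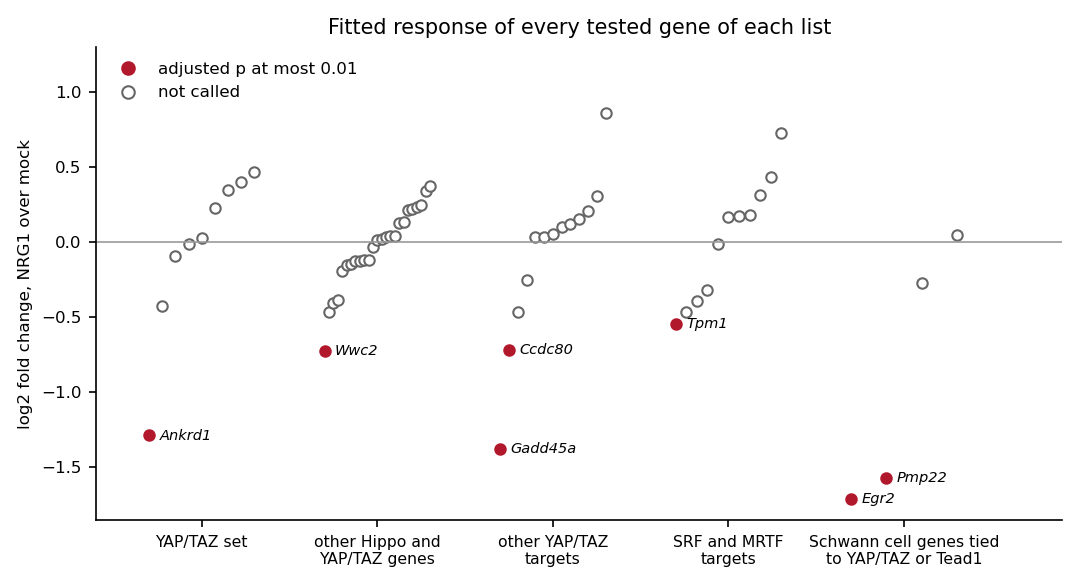
Fitted log2 fold change of NRG1 over mock for every tested gene of the YAP and TAZ set and of 4 further gene lists, ordered by value within a list. Filled points with names mark the 7 genes with an adjusted p of at most 0.01, all of which lie below 0, from Egr2 at -1.71 to Tpm1 at -0.54. Of all genes tested, 11.8% were called at this threshold: 6.31% rose and 5.51% fell. At an adjusted p of at most 0.05, the set and the pathway, target and SRF lists had 2, 2, 1 and 1 genes that rose and 2, 3, 3 and 2 that fell. The study had already reported Egr2, Pmp22 and Gadd45a as down-regulated.

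The genes whose profile over the 6 libraries was nearest to that of Ctgf, Cyr61 and Ankrd1 were found by the root mean square difference of centred log2 CPM. Nearest to Ankrd1 was Gadd45a, at a difference of 0.116, followed by Cep112 at 0.184 and Nr4a2, a nuclear receptor gene, at 0.221. Since likeness was measured over the same libraries, the direction of these genes followed from their choice and is a description only. Cep112 and Nr4a2 had log2 fold changes of -1.10 and -1.25. Nearest to Cyr61 were Tgfb1i1, which encodes the focal adhesion protein Hic-5, at 0.112, the actin bundling gene Pls3 at 0.132 and the sugar transporter gene Slc2a12 at 0.174. Their log2 fold changes were -0.32, -0.57 and -0.23. Ctgf was nearest to Atp10a at 0.14, and to Enc1 and Pawr, both at 0.184. For Cyr61 and Ctgf the profile was dominated by the distance between culture 1 and the others.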

How the data were processed

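Raw read counts per gene were deposited for each of the 6 libraries. According to the submitters' notes and the study's methods, the authors had aligned the reads to rn5 with TopHat2 2.0.10 and counted them with HTSeq. The strand setting is not given in the sources used here, so reads of overlapping and antisense genes cannot be told apart. Summary lines of the counter, which held 50.1 to 53.0% of all entries, were kept out of library sizes and tests.

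Counts were filtered with filterByExpr (minimum count 10), scaled by TMM and tested with the quasi-likelihood test of edgeR 4.0.16 (R 4.3.3, limma 3.58.1), with condition and replicate number as terms and Benjamini-Hochberg adjustment over 9740 genes. The pairing by number follows the study's paired design. Deviations from the group means correlated across genes at 0.906, 0.673 and 0.81 between libraries of the same number, and at -0.797 to 0.514 between those of different numbers. Log2 ratios of single cultures used a prior count of 2. The scripts were tested on simulated data. Alternatives were DESeq2 1.42.0, the fit without the replicate block, other scalings and filters, other thresholds and leaving out each culture. No 2 libraries agreed within counting noise. The members and the lists were chosen with earlier results of these data known. Named genes were all members, every list gene called (at most 8 of a list), a set of pathway genes, targets and Schwann cell genes whatever their result, and the 3 nearest profiles of Ctgf, Cyr61 and Ankrd1. The test between cultures and its alternatives were added after the data were seen. Intervals and the limit on counts of 0 do not cover library preparation. Promoters were taken from RefSeq tables. Some Schwann cell markers of the planned list are not reported here, and their counts are in no marker sum.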

Additional observations from a re-analysis of the deposited data

How the results depend on the processing

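Without the replicate block, edgeR called 0 of all genes tested (smallest adjusted p 0.139, 1334 genes at an unadjusted p under 0.05, 2 of them members) and so 0 members, 0 regulated members and 0 genes of the pathway, target and SRF lists. The unpaired DESeq2 test called 178 genes, with 0 members, 0 regulated members, 0 pathway genes, 1 target and 0 SRF genes. Paired DESeq2 called 2 members and 2 SRF genes, beside 954 genes in all. Without the filter on low counts, 2 members, 2 pathway genes, 4 targets and 2 SRF genes were called, beside 1705 of 13129 genes in all. In that setting 3543 genes differed between cultures. At an adjusted p of 0.05, calls numbered 4 members, 5 pathway genes, 4 targets, 3 SRF genes and 2260 genes in all, and 3538 genes differed between cultures. With the fold limit inside the test, 0 members were regulated. Leaving out 1 culture gave 0 to 1 members changed and 0 to 1 regulated, 1 to 4 targets, 0 to 2 SRF genes and 661 to 1191 genes in all. Between cultures, it gave 0 to 4 members and 245 to 3783 genes, the lower values without culture 1. No log2 fold change of a called gene of the set or of the lists turned its sign. The cause of these differences was not tested. DESeq2 without the block gave no p for Cyr61. With 35 to 109 reads in each library, the level of Ankrd1 is the least precise of the set.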

Other observations

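The further lists also differed between the cultures, whatever the treatment. Of 13 YAP and TAZ targets tested, 6 differed by the edgeR test (adjusted p of at most 0.01, beside 23.4% of all genes), all of them highest in culture 1: F3, Nt5e, Tgfb2, Myof, Crim1 and Ccdc80. Tgfb2, a growth factor gene of the TGF-β family, had 1505 and 1247 counts in the mock and NRG1 libraries of culture 1, against 2 to 16 counts in the other 4 libraries. Nt5e, which encodes the surface nucleotidase CD73, had 806 and 976 counts in culture 1 and 7 to 24 in the others. Of 11 SRF and MRTF targets tested, 8 differed and all were highest in culture 1. Among them was the smooth muscle actin gene Acta2, with 13567 and 13836 counts in culture 1 and 7 to 31 in the others. Tgfb2, Nt5e and Acta2 had enough reads to be tested in the main fit only because of culture 1. Their place as highest there is therefore a description only. The genes of both lists that differed were thus high in the same culture as the fibroblast and pericyte markers, whose part in these differences was not tested.

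Of 25 further pathway genes, 7 differed between the cultures, beside 23.4% of all genes. The atypical cadherin genes Fat1 and Fat4, the kinase gene Stk3 and the LATS cofactor gene Mob1b were highest in culture 1, whereas Rassf1, Tead2 and Vgll4 were lowest there. Of the 4 Schwann cell genes tied to YAP, TAZ or Tead1, 3 differed and were lowest in culture 1.

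Limd1, which encodes a LIM protein of the Ajuba family, had 89.7, 82.3 and 78.7 CPM in mock libraries 1 to 3 and 109.6, 102.6 and 105.2 CPM in the NRG1 libraries. As for Ajuba, all NRG1 levels were above all mock levels, and the log2 fold change of 0.34 had an edgeR adjusted p of 0.0434, short of the threshold. Limd1 was singled out after its values were seen. It was 1 of 4 among the 25 tested pathway genes whose groups did not overlap, beside 20.1% of all genes tested.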
